A study of Mus musculus with 2 samples.

Results

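Imprinted retrogenes are intronless gene copies that lie inside, or start inside, another gene, and 3 of them were examined here together with their hosts: Nap1l5 in Herc3, Mcts2 in H13 and Zrsr1 in Commd1. Inpp5f, which carries an internal imprinted transcript, and the neighbours Trappc9 and Kcnk9 were added as further imprinted genes built around an internal or nearby start. The members were chosen by name and not by any measured value, though earlier results of these data were known by then. They make up 9 of the 37273 genes annotated on chromosomes 1 to 19, X and Y. Each host gene body with 25 kb on each side formed 1 region. Trappc9 and Kcnk9 were taken as 1 span, which gave 5 regions, and 21 of the 33756 CTCF summits on these chromosomes lay in them.

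The data are ChIP-seq libraries of R1/E ESC, a mouse embryonic stem cell line, in which CTCF with a LAP tag containing GFP was expressed from a stably integrated BAC. In both libraries chromatin was crosslinked with 1% formaldehyde and sheared to about 500 bp, and 5 µg of antibody were used. A goat antibody against eGFP gave the CTCF library and a goat IgG isotype control gave the IgG library, which the labels also call input DNA. There was 1 library per antibody and hence no replicate, and the GFP-antibody reads the tagged CTCF only. The tag files hold positions without base calls, so the maternal and the paternal allele were not separated, and no expression or DNA methylation was measured in these files.

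At an imprinted gene the maternal and the paternal copy differ in activity, and the difference is tied to a stretch of DNA that is methylated in the egg or in the sperm. The retrogenes are known for CpG-rich promoters that are methylated on the maternal copy, so that the paternal copy is transcribed, often from within an intron of a host gene that is read from its own promoter. CTCF is a zinc finger protein that binds a long DNA motif, marks chromatin boundaries and loop anchors, and at many sites binds less well when the motif is methylated. The comparison therefore concerns where CTCF tags lay relative to the retrogene starts and to the host starts.

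Sequence is shown first for the nearest summit with a motif on each side of a retrogene start within its region, for the tallest such summit of each region, for both Inpp5f summits with a motif, and for the summit upstream of Trappc9, whose motif is on the opposite strand to the others of its region. Each line holds a 19-base match to the CTCF motif in capitals with 15 bases on each side, written 5′ to 3′ on the strand that holds the motif, with mm9 coordinates. The motif was a matrix made from 192 CTCF motif matches listed by the study. It was searched on both strands within 150 bp of each summit. Where a summit had more than 1 match, the best-scoring one is shown and gives the direction. Peaks are numbered along the chromosome within a region.
Herc3 peak 1, chr6:58871768-58871816, plus strand: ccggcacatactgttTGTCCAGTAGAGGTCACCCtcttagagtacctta
H13 peak 1, at the H13 start, chr2:152495108-152495156, plus strand: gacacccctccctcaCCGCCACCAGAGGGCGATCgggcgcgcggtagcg
H13 peak 2, chr2:152497480-152497528, plus strand: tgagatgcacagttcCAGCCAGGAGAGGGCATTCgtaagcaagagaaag
H13 peak 4, the first past Mcts2, chr2:152517818-152517866, plus strand: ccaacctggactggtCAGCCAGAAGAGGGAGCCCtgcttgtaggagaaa
Commd1 peak 1, chr11:22850305-22850353, plus strand: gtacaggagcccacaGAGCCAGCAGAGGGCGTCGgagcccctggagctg
Commd1 peak 3, chr11:22865792-22865840, plus strand: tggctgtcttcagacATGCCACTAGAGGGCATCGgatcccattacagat
Commd1 peak 6, chr11:22887477-22887525, plus strand: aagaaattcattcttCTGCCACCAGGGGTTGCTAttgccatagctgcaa
Inpp5f peak 1, chr7:135833863-135833911, minus strand: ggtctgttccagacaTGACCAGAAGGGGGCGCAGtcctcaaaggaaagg
Inpp5f peak 2, chr7:135849383-135849431, minus strand: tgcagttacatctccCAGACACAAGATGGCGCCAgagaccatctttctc
Kcnk9 intron, peak 1, chr15:72347642-72347690, minus strand: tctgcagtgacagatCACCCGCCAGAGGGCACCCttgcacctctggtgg
Trappc9 intron, peak 2, chr15:72640782-72640830, minus strand: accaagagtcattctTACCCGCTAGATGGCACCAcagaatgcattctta
Trappc9 upstream, peak 5, chr15:72899451-72899499, plus strand: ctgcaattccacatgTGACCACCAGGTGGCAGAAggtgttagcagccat

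The starts of the retrogenes themselves and of the internal transcript Inpp5f-006 are shown with their CpGs, since CpG-rich promoters are what these retrogenes are known for. The 101 bases centred on each annotated start are given on the coding strand, with every CpG in capitals.
Nap1l5 start, chr6:58857070-58857170, minus strand: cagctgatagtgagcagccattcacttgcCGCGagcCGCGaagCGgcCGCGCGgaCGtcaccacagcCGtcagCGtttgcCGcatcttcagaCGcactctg
Mcts2 start, chr2:152512834-152512934, plus strand: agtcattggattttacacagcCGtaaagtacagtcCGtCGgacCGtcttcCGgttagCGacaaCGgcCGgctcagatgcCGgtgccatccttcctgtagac
Zrsr1 start, chr11:22873165-22873265, plus strand: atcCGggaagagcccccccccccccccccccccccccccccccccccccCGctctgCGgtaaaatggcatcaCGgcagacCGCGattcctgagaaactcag
Inpp5f-006 start, chr7:135831953-135832053, plus strand: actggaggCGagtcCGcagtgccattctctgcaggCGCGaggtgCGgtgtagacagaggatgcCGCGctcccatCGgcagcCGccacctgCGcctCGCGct

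These windows held 13 CpGs at Nap1l5, 9 at Mcts2, 6 at Zrsr1 and 12 at Inpp5f-006. Over 500 bp on each side of the start, the ratio of observed to expected CpGs was 0.702 for Nap1l5, 0.955 for Mcts2, 0.743 for Zrsr1 and 0.763 for Inpp5f-006. The median was 0.549 over 22367 protein-coding gene starts and 0.368 over 186 single-exon protein-coding genes nested in an intron of another gene. Inpp5f-006 was picked among the internal starts of Inpp5f for being protein-coding and CpG-rich, so its ratio was high by choice. The retrogene starts, chosen by name, were all more CpG-rich than the median of either set. This was not particular to them, since the ratio was 0.737 at the start of Herc3, 0.82 at H13, 0.738 at Commd1, 0.704 at Inpp5f and 0.866 at Kcnk9, and only Trappc9, at 0.522, lay under the median of protein-coding gene starts. Nap1l5 and Mcts2 belong to those 186 genes. Zrsr1 does not, since an exon of a Commd1 transcript lies within it.

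The libraries held 8391191 CTCF tags and 7988889 IgG tags of 35 bp, with no position and strand occurring more than 1 time. Each tag was counted 92 bp inward of its end, near the middle of its fragment, and ratios were scaled to the same depth. Intervals are exact 95% intervals unless stated otherwise and cover counting error between these 2 libraries only. Of the 35-base words of the retrogene start windows, 99.8% at Nap1l5, 97.9% at Mcts2 and 99.4% at Zrsr1 occurred 1 time in the genome. Of the words of the 5 regions, 91.5% to 96.6% did so. Reads that match more than 1 place may be missing from the rest. In 2 kb bins, 3 of the Herc3 region, 2 of the Inpp5f region and 1 of the Trappc9 and Kcnk9 region held no tag in either library. The last of these was the bin at the end of its region and shorter than 2 kb.

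No CTCF enrichment was detected at the retrogene starts, whereas it was at 2 of their 3 host starts. By the test given below, 7.76% of all gene starts and 8.06% of nested single-exon protein-coding gene starts were enriched. At such shares, none among 3 starts is the usual outcome. Within 1 kb of the start of Nap1l5, which encodes a nucleosome assembly protein-like factor, lay 3 CTCF and 6 IgG tags, a ratio of 0.476 (0.077 to 2.23). The start of Mcts2, the retrocopy of the translation factor gene Mcts1, had 4 CTCF and 6 IgG tags, a ratio of 0.635 (0.132 to 2.68). At Zrsr1, the retrocopy of the splicing factor gene Zrsr2, 4 CTCF and 10 IgG tags gave a ratio of 0.381 (0.0872 to 1.32). The 3 starts together held 11 CTCF and 22 IgG tags, a ratio of 0.476 (0.208 to 1.02), and the largest CTCF pileup in them was 2 tags where the lowest summit deposited for this library is 6 tags high. CTCF tags were fewer than IgG tags at all 3, and a ratio above 2.68 lies outside each of the 3 intervals. A weaker enrichment was not detectable at this depth.

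The host starts differed. The start of H13, which encodes the signal peptide peptidase, had 37 CTCF and 6 IgG tags, a ratio of 5.87 (2.46 to 17), with an adjusted p of 9.10e-05. The start of Commd1, whose product acts in copper homeostasis, had 45 CTCF and 6 IgG tags, a ratio of 7.14 (3.04 to 20.5), with an adjusted p of 3.79e-06. Herc3, a gene for a ubiquitin ligase, had 4 CTCF and 6 IgG tags at its start, a ratio of 0.635 (0.132 to 2.68). The p-values are from an exact binomial test, two-sided, with Benjamini-Hochberg adjustment over the 37273 gene starts, and compare 2 libraries rather than conditions. The authors called the peaks at the H13 and Commd1 starts on the same libraries, so test and peaks are not independent of each other.

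At the other 3 starts the tags of both libraries were few. Inpp5f, a phosphoinositide phosphatase gene, had 5 CTCF and 4 IgG tags, a ratio of 1.19 (0.256 to 6). Trappc9, which encodes a subunit of a vesicle trafficking complex, had 4 CTCF and 5 IgG tags, a ratio of 0.762 (0.151 to 3.54). Kcnk9, which encodes the potassium channel TASK3, had 1 CTCF and 3 IgG tags, a ratio of 0.317 (0.00605 to 3.95). Of the 9 member starts, 2 passed the test with more CTCF than IgG tags, while 7.76% of all gene starts did so. The adjusted p of the remaining 7 starts lay between 0.492, at Zrsr1, and 1. For comparison, the starts of the X-linked parent genes held 0 CTCF and 6 IgG tags at Mcts1 (adjusted p = 0.121 in the same exact binomial test) and 4 CTCF and 5 IgG tags at Zrsr2.

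**Figure D1:**
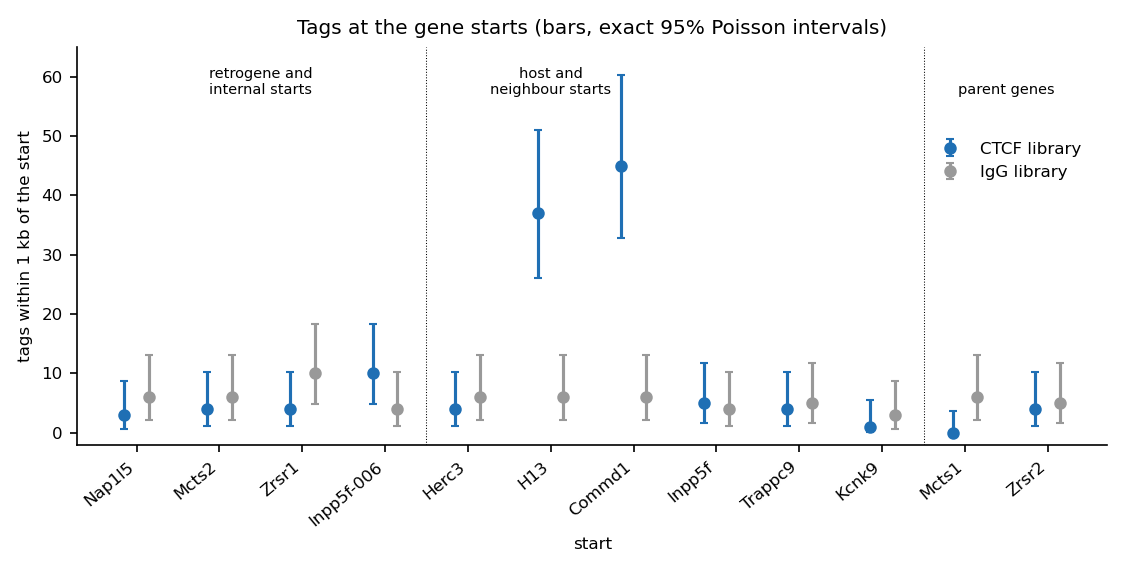
Tags within 1 kb of each start (vertical axis, number of tags) in the CTCF library (blue) and the IgG library (grey), with exact 95% Poisson intervals of the counts as bars. The H13 and Commd1 starts, at 37 and 45 CTCF tags, stand above all other starts shown, which hold 0 to 10 CTCF tags.

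The nearest CTCF summit lay 14547 bp from the Nap1l5 start, 4936 bp from the Mcts2 start and 3540 bp from the Zrsr1 start. No retrogene start of the 3 had a summit within 1 kb. Summits within 1 kb were found at 2 of the 9 member starts, H13 at 107 bp and Commd1 at 121 bp, while 7.91% of protein-coding gene starts and 5.91% of nested single-exon gene starts had one. The median distance was 15553 bp over protein-coding gene starts and 21152 bp over nested single-exon gene starts. All 3 retrogenes thus lay closer to a summit than the median gene of either set, with 48.1%, 23.9% and 18.9% of protein-coding gene starts closer still in the order Nap1l5, Mcts2 and Zrsr1. For Nap1l5 this rests on 1 low peak, and the nearest peak scoring 100 or more lay 134852 bp away. Among the other members the distance was 59191 bp at Herc3, 47829 bp at Inpp5f, 29054 bp at Kcnk9 and 7844 bp at Trappc9.

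The summits flanked the retrogenes at very different spacings. Mcts2 lay in a gap of 13.9 kb between summits, with 8998 bp to the one upstream and 4936 bp to the one downstream. Zrsr1 lay in a gap of 12.8 kb, with 3540 bp upstream and 9288 bp downstream, where the downstream summit is that of the Commd1 start. Nap1l5 lay in a gap of 149 kb, longer than 88.5% of all gaps between neighbouring summits, with the whole body of Herc3 inside it. The median gap was 25.6 kb. The gap around the Inpp5f start measured 127 kb and that around the Kcnk9 start 293 kb.

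**Figure D2:**
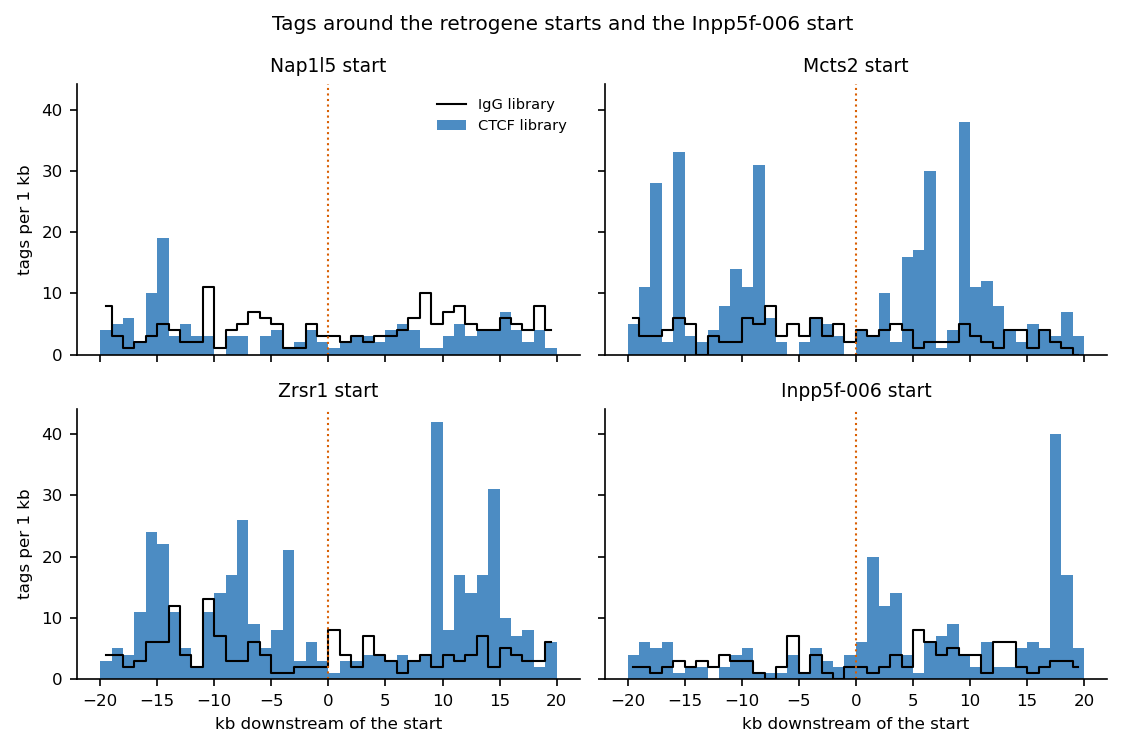
Tags per 1 kb (vertical axis) in the CTCF library (blue bars) and the IgG library (black line) against the distance in kb downstream of the Nap1l5, Mcts2, Zrsr1 and Inpp5f-006 starts (dotted line). CTCF tags rise above IgG tags on both sides of Mcts2 and Zrsr1 but not over their starts, on the upstream side only within 20 kb of Nap1l5, and from about 1 kb downstream of Inpp5f-006.

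All 6 genes taken as hosts or neighbours (Herc3, H13, Commd1, Inpp5f, Trappc9 and Kcnk9), each with 25 kb on each side, held at least 1 summit, as did 73.7% of protein-coding gene regions built the same way. The regions held 21 summits in 1160 kb, or 1.81 per 100 kb, and 14 of these lay in the gene bodies and 7 in the flanks. The genome held 1.27 per 100 kb, and protein-coding gene regions had a median of 1.95 (quartiles 0 and 4.06). H13 was the most densely occupied, with 6 summits in 89.2 kb or 6.73 per 100 kb, and 90.4% of protein-coding gene regions had a lower density. The Commd1 region had 6 summits in 198 kb (3.04 per 100 kb) and the Inpp5f region 3 in 135 kb (2.22 per 100 kb). The Trappc9 and Kcnk9 region had 5 summits in 599 kb (0.835 per 100 kb), and the Herc3 region had 1 (0.72 per 100 kb). Beside protein-coding gene regions of similar length, H13 had 6 summits against a median of 2, Commd1 6 against 3 and Inpp5f 3 against 2. Trappc9 taken alone had 4 against 4, Kcnk9 alone 1 against 2, and Herc3 1 against 3.

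**Figure D3:**
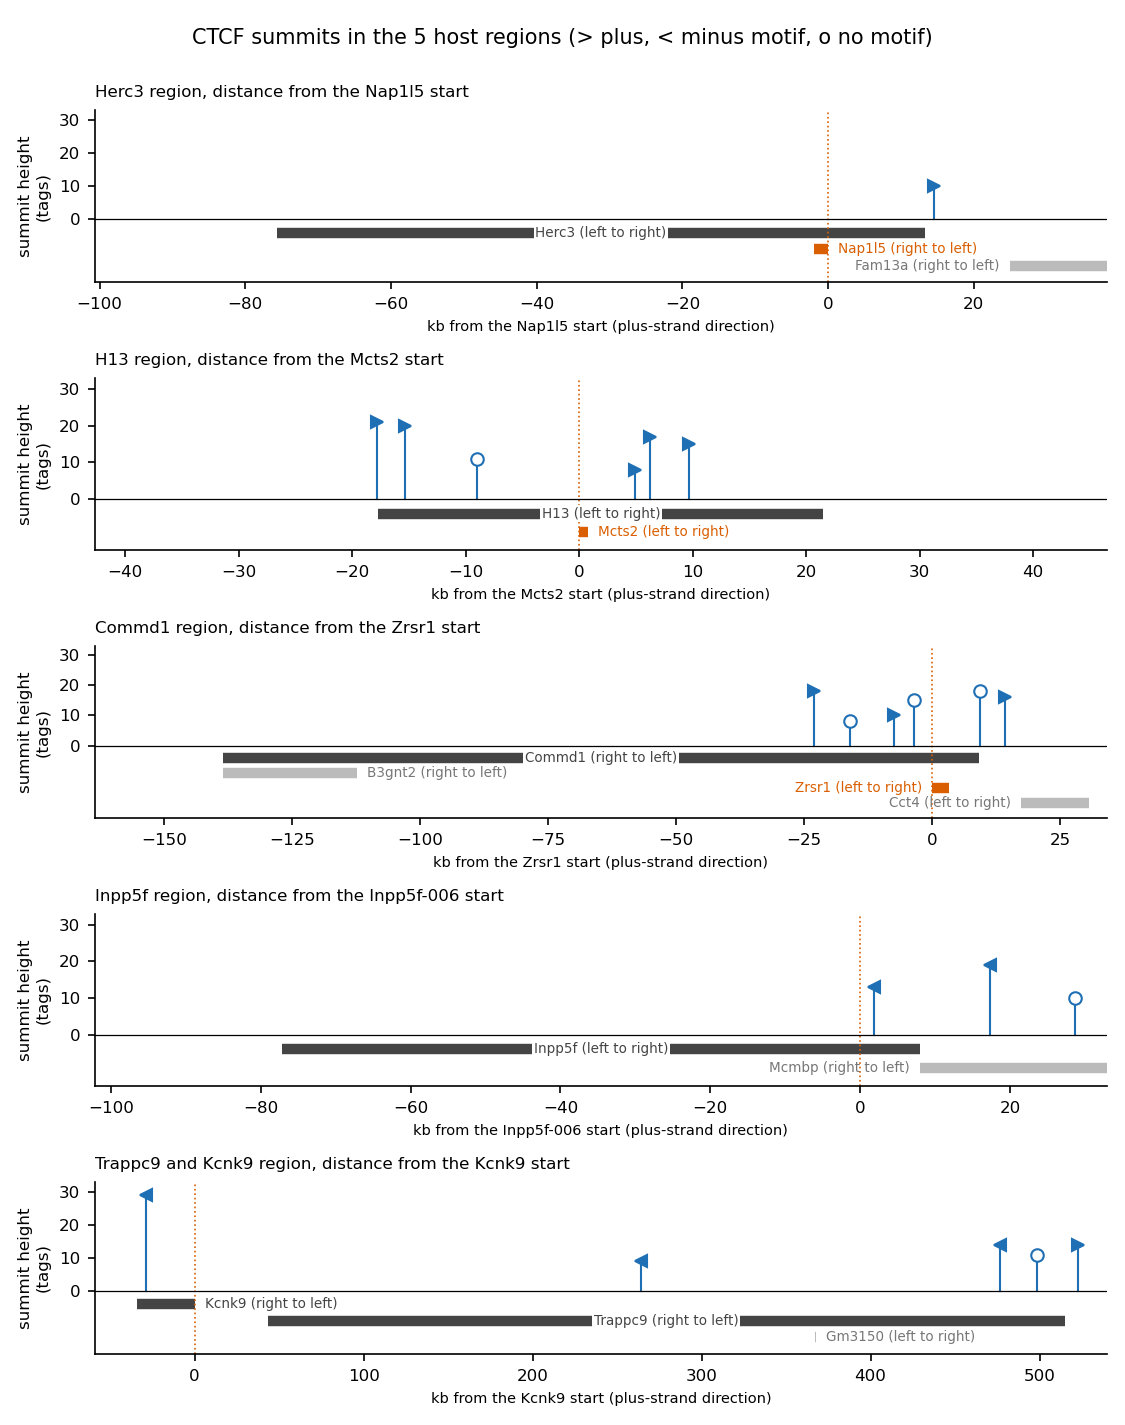
CTCF summits in the 5 regions, with height in tags (vertical axis) against the distance in kb from the retrogene start, or from the Inpp5f-006 and Kcnk9 starts, in plus-strand direction. Triangles point in the direction of the motif, open circles mark summits without one, and bars show protein-coding genes, whose names can interrupt the bar. The H13 region holds 6 summits between 8 and 21 tags high, the Herc3 region 1 of 10 tags, and the tallest, at 29 tags, lies in Kcnk9.

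Summit heights, the size of the deposited tag pileup, ranged from 8 to 29 tags with a median of 14, beside a median of 13 over all summits. The 21 peaks held 655 CTCF and 66 IgG tags, a ratio of 9.45 (7.33 to 12.4). Single peaks held 11 to 77 CTCF tags and 0 to 7 IgG tags. The authors' score, -10 times the log10 of the MACS p-value, ran from 56.38 to 479.87 with a median of 142.78 (116.96 over all summits). In height these peaks were close to the middle of the library.

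In the Herc3 region the only summit lay outside the gene, on the far side of Nap1l5. It was 14547 bp upstream of the Nap1l5 start, past the end of Herc3, and had a height of 10 tags, a score of 82 and 18 CTCF against 3 IgG tags. Its motif lay 125 bp from the summit on the plus strand and so ran away from Nap1l5. The 88.9 kb of the Herc3 body, with both its own start and that of Nap1l5, held 0 summits.

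In the H13 region 3 summits lay before Mcts2 and 3 past it. Peak 1 sat 107 bp upstream of the H13 start with a height of 21 tags and 35 CTCF against 4 IgG tags. Peak 2 followed in an intron 2364 bp past the H13 start, with a height of 20 tags and 30 CTCF against 6 IgG tags. Peak 3, 8998 bp upstream of Mcts2, was 11 tags high, with 35 CTCF and 5 IgG tags spread over 1095 bp. Peaks 1 and 2 were the tallest of the region, and peak 3 was the widest of these 3.

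Peak 4, 4936 bp past the Mcts2 start, was the lowest at 8 tags, with 15 CTCF and 1 IgG tag. Peak 5, at 6217 bp, was 17 tags high, with 38 CTCF and 2 IgG tags. Peak 6, at 9719 bp, was 15 tags high, with 44 CTCF and 5 IgG tags. All 3 lay in introns of H13 downstream of the retrogene. Motifs were found at 5 of the 6 summits, and the best match of all 5 lay on the plus strand, the strand of both H13 and Mcts2. Peak 6 also held a weaker match on the minus strand, of 13.7 bits beside 21.6 bits. Peak 3 had none within 150 bp, but a plus-strand match lay 316 bp from its summit with 17 CTCF tags within 150 bp of the match, where the summit itself had 12.
H13 peak 3, off the summit, chr2:152504178-152504226, plus strand: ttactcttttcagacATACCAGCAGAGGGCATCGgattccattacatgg

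The annotated H13 transcripts end on either side of Mcts2, and the summits can be placed against them. H13-006 ends 447 bp and H13-005 ends 3707 bp before the Mcts2 start. Those starting at the H13 promoter and passing Mcts2 end 16980 to 21522 bp beyond it, and H13-004 starts past Mcts2 and ends 9093 bp beyond it. No summit lay between the end of H13-006 and the Mcts2 start, and the 3 downstream summits fell within the part that only the transcripts extending beyond Mcts2 cover. These files hold no RNA, so which transcripts were made in these cells was not measured.

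The Commd1 gene is read opposite to Zrsr1, and its summits crowded around the 5′ part that holds the retrogene. The rest of the gene and its 3′ flank fell in a gap of 173 kb without a summit. Peak 1, 22965 bp upstream of Zrsr1, was 18 tags high, with 35 CTCF and 7 IgG tags. Peaks 2 and 3 followed at 16020 and 7433 bp, at heights of 8 and 10 tags. Peak 4, the nearest to the retrogene at 3540 bp upstream, was 15 tags high with 18 CTCF and 1 IgG tag. All 4 were in introns of Commd1.

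Peak 5 sat 121 bp upstream of the Commd1 start and 9288 bp past the Zrsr1 start, with a height of 18 tags, 43 CTCF and 3 IgG tags, and a score of 261.65, the highest of the region. Peak 6 lay between Commd1 and Cct4, a chaperonin subunit gene, with a height of 16 tags and 32 CTCF against 1 IgG tag. Only 3 of the 6 summits had a motif, all on the plus strand. Both summits next to Zrsr1, peaks 4 and 5, had none. The best match within 150 bp of the Commd1 start summit scored 1.62 bits with a p-value of 0.00112, where the threshold was 13.1 bits and a p-value of 1e-05. At peak 4 the best match scored 6.68 bits with a p-value of 0.000184. That of peak 2 came closest to the threshold, at 12.1 bits with a p-value of 1.68e-05, and lay on the minus strand.
Commd1 peak 5, best match below the threshold, letters in capitals at chr11:22882552-22882570, minus strand: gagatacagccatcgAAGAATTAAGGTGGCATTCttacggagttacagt

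In Inpp5f the summits lay at the 3′ end. Peak 1, 78974 bp past the Inpp5f start, was 13 tags high with 22 CTCF and 1 IgG tag, and it lay in an intron 1813 bp downstream of the start of Inpp5f-006. Peaks 2 and 3 lay in introns of the neighbour Mcmbp, a gene for a protein that binds the replicative helicase, at heights of 19 and 10 tags with 44 and 14 CTCF tags and 4 and 0 IgG tags. The motifs of peaks 1 and 2 were on the minus strand and so ran back toward the Inpp5f starts, and peak 3 had none.

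The annotation names 7 internal transcript starts in Inpp5f and does not say which gives the imprinted transcript. Their windows of 1 kb on each side held 5 to 16 CTCF tags and 2 to 12 IgG tags. Inpp5f-008 had the most, with 16 CTCF and 8 IgG tags, a ratio of 1.9 (0.769 to 5.14). Inpp5f-006, which is protein-coding, had 10 CTCF and 4 IgG tags, a ratio of 2.38 (0.686 to 10.4). Inpp5f-005, whose start lies 2756 bp from peak 1, had 6 CTCF and 2 IgG tags, a ratio of 2.86 (0.511 to 28.9). Each of these intervals includes 1. Inpp5f-005 and Inpp5f-006 had the highest ratios of observed to expected CpGs of the 7, at 0.671 and 0.763, and the remaining 5 lay between 0.21 and 0.353.

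The tallest summit of all 21 lay in the intron of Kcnk9, 29054 bp past its start. It was 29 tags high, above 97.7% of all summits, and its peak held 77 CTCF and 5 IgG tags, a ratio of 14.7 (6.02 to 46.4). From there 293 kb passed to the next summit, in an intron of Trappc9, which was 9 tags high with 21 CTCF and 0 IgG tags. Peak 3, 38094 bp past the Trappc9 start, was 14 tags high with 21 CTCF and 3 IgG tags. Peak 4, at 16240 bp, was 11 tags high with 34 CTCF and 5 IgG tags. Peak 5, 7844 bp upstream of Trappc9, was 14 tags high with 34 CTCF and 3 IgG tags. The best matches of peaks 1, 2 and 3 were on the minus strand and that of peak 5 on the plus strand, and peak 4 had none. Peak 1 held a plus-strand match of nearly the same score, 15.8 bits beside 16.7 bits, so its direction is not clear. Peg13, the noncoding imprinted transcript of this region, has no entry in the annotation used here, so distances were given from Kcnk9.

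A motif was found at 15 of the 21 summits, 71.4% (95% Wilson interval 50 to 86.2), and at 72.6% of all summits. By the best match of each summit, 10 were on the plus strand and 5 on the minus strand. By this measure the direction was uniform within 3 of the 4 regions with more than 1 such summit, namely H13 and Commd1 on the plus strand and Inpp5f on the minus strand. With 2 to 5 motifs per region this is a description of these sites. In Commd1 the uniform direction depends on the threshold. The best match at Commd1 peak 2, just below it at 12.1 bits, lay on the minus strand. No motif lay within 1 kb of the 3 retrogene starts, and 28.3% of protein-coding gene starts had at least 1 in such a window.

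Between the peaks, the regions differed in the level of CTCF tags. Outside peaks the ratio of CTCF to IgG tags was 1.46 (1.25 to 1.72) in the H13 region, from 392 CTCF and 255 IgG tags. It was 1.09 (0.994 to 1.2) in the Commd1 region and 1.09 (0.951 to 1.24) in the Inpp5f region. It was 0.833 (0.782 to 0.887) in the Trappc9 and Kcnk9 region and 0.742 (0.652 to 0.843) in the Herc3 region, the latter from 430 CTCF and 552 IgG tags. The interval of H13 overlapped with none of the other 4. Over all 5 regions the ratio was 0.936 (0.896 to 0.977), and over the genome it was 0.898 (0.897 to 0.899).

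Protein-coding gene regions had a median ratio of 1.09 outside peaks, with quartiles of 0.871 and 1.38. H13 lay above 80.6% of them and Herc3 above 11%, so neither was at the edge of the range. The share of G and C bases moved with the ratio at both ends, at 48.7% in the H13 region and 41.5% in the Herc3 region, but was 46.3% in the Trappc9 and Kcnk9 region with its low ratio. The part of base composition in these ratios was not tested.

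**Figure D4:**
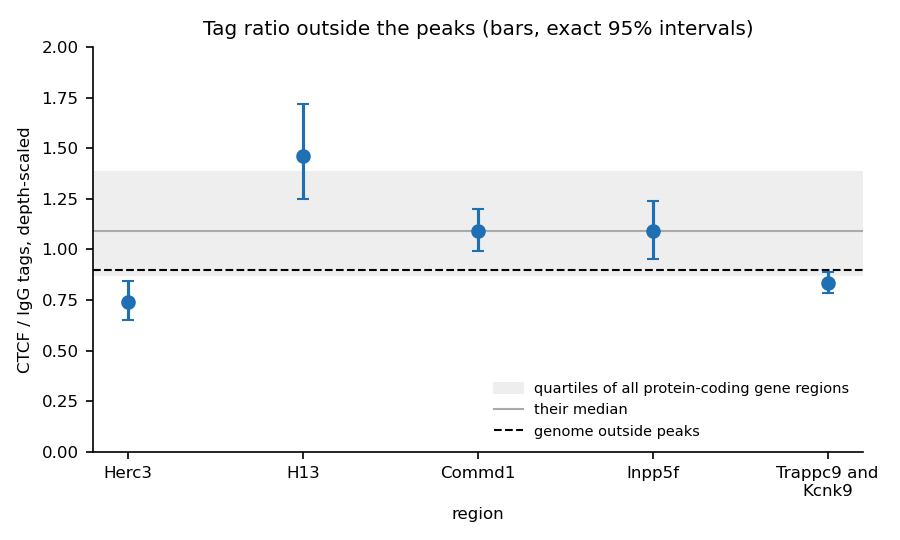
CTCF over IgG tags outside the peaks, scaled to equal depth (vertical axis), in each of the 5 regions, with exact 95% intervals as bars, beside the quartiles and the median of all protein-coding gene regions (grey band and line) and the genome value (dashed). H13, at 1.46, lies above the band, Herc3 and the Trappc9 and Kcnk9 region, at 0.742 and 0.833, lie below it, and the intervals of Commd1 and Inpp5f include the median of 1.09.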

How the data were processed

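ChIP-seq tags of 1 CTCF-LAP library and 1 IgG library from R1/E ESC were analysed. The authors deposited aligned tags with a count of 1 per line, unnormalized, on mm9. For CTCF the authors also deposited MACS 1.4 peaks (version from the submitters' processing notes) carrying a score (the p-value against IgG as -10 log10 units) and summits with a signal, the pileup height in tags. The lowest deposited score was 50. The aligner is not given in the sources used here.

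NCBI m37 (mm9) sequence and GENCODE M1 genes were used, with pandas 2.3.3 and numpy 2.4.6 for counting, pysam 0.24.0 for sequence, scipy 1.17.1 for tests and matplotlib 3.10.9 for plots, in Python 3.11.15. The fragment length at the 1000 highest scoring peaks was 185 bp. Ratios were scaled by library totals. Gene starts were tested over 1 kb on each side by an exact binomial test, two-sided, with Benjamini-Hochberg adjustment. A start passed at an adjusted p under 0.05. The motif matrix was made from 192 CTCF motif matches of the study's motif list, so it is not the study's own matrix. It was used with a pseudocount of 1, base frequencies of 0.29 (A, T) and 0.21 (C, G) and a p-value threshold of 1e-05.

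Members and gene lists were chosen with earlier results of these data known. Named peaks were the nearest on each side of a retrogene start and the 3 tallest of each region. H13 peak 6, Commd1 peaks 2 and 3 and Trappc9 peak 4 were named after their values were seen. The scripts were tested on simulated data. Alternatives varied the score, flank, window, scaling and motif settings.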

Additional observations from a re-analysis of the deposited data

How the results depend on the processing

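No library could be left out, and no result has a replicate check. No paired analysis was possible because neither antibody has a replicate. Of 98 alternative values of 29 results, 82 were the same, 11 moved and 5 changed direction. The same meant an unchanged direction and side of the threshold, or for counts and values without a test a value near the one given. Near was wide: 14 peaks in place of 21 counted as the same. So did a ratio at the 3 retrogene starts of 0.709 within 2 kb in place of 0.476. Sizes at starts still varied with the window, and the ratio at Commd1 was 18.1 within 500 bp in place of 7.14. Counting within 2 kb of the start turned the ratio at Herc3 to 2.26 and at Kcnk9 to 2.38, and that at Inpp5f to 0.952, which 500 bp also gave (0.952). All 3 rest on few tags and none passed the test at any window. Scaling by the tags outside peaks, which sets the genome to 1, turned the ratio of all 5 regions outside peaks to 1.04 (0.999 to 1.09), that of Commd1 to 1.22 and that of Trappc9 and Kcnk9 to 0.928. When only peaks scoring 100 or more were kept, the median distance from the 3 retrogene starts to a summit was 6217 bp in place of 4936 bp, that of Nap1l5 was 134852 bp, and the Herc3 region had 0 peaks and all regions 14. Asking for the motif within 50 bp of the summit lowered its share to 28.6%, and to 31.8% over all summits. Of all gene starts, 1419 passed within 500 bp, 2892 within 1 kb and 4854 within 2 kb. Alternatives chosen after seeing the data were Trappc9 without Kcnk9 (20 summits) and the motif anywhere in the peak (76.2%). The depth leaves enrichment below the upper limits given at the retrogene starts undetected.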

Other observations

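CTCF motif matches outside the deposited peaks were also counted in the 5 regions. Of 145 matches, 20 lay in peaks and 125 outside them. The matches outside, merged into 118 stretches, held 185 CTCF and 94 IgG tags, a ratio of 1.87 (exact 95% interval 1.45 to 2.43), which was 8.81 (3.16 to 34) in the H13 region, 3.59 (1.92 to 7.21) in the Commd1 region and 0.433 (0.118 to 1.35) in the Herc3 region. It was 1.43 (0.693 to 3.04) in the Inpp5f region and 1.34 (0.924 to 1.95) in the Trappc9 and Kcnk9 region. The H13 value rests on 37 CTCF and 4 IgG tags and the Herc3 value on 5 and 11. Ordered by this ratio, the 5 regions stood as they did by peak density. The interval of each region overlapped that of the next in the order, so the order itself is not established. No CTCF tag lay within 150 bp of 44 of the 125, of which 13 were in the Herc3 region. At 25 of the 44, and at 10 of the 13, the IgG library had no tag either. Some of the 10 lay in 2 kb bins of the Herc3 region without a tag in either library. A lack of CTCF tags says nothing about CTCF in such bins. The IgG library held 3.66 tags per kb over the 5 regions, so elsewhere 0 IgG tags in so short a window does not show that reads were missing. Whether such matches were unbound or poorly covered by reads was not tested.

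Matches with as good a score as those in peaks differed widely in their tags. The best outside the peaks were a pair of nearly equal score, both 23.2 bits as rounded. One lay 3298 bp from the Kcnk9 start on the side away from the gene and had 8 CTCF and 0 IgG tags. The other lay in the flank of H13, 22171 bp from the nearest summit, and had 1 CTCF and 0 IgG tags. In the Commd1 region a match 989 bp from the summit of peak 2 had 12 CTCF and 1 IgG tag, more than that of any other unlisted match. Of the 9 unlisted matches with a p-value of at most 1e-07, 3 had 0 CTCF and 0 IgG tags, in introns of Herc3, Inpp5f and Trappc9. The Inpp5f and Trappc9 matches had the same 15 bases before the motif, and closely similar sequence recurred at other unlisted matches. Whether such repeated sequence affected their tags was not tested. The Herc3 start window held 2 matches within 107 bp of the start, with 0 CTCF tags and 1 and 0 IgG tags within 150 bp. The pair of nearly equal score is shown, both on the plus strand, so that the letters can be compared.
Beside Kcnk9, chr15:72379983-72380031, 8 CTCF tags: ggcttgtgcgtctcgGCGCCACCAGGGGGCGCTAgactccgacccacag
H13 flank, chr2:152472895-152472943, 1 CTCF tag: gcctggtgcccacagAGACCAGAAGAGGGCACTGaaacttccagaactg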
